A study of Mus musculus with 2 samples.

Results

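The core circadian clock of the liver was described through 10 genes: the activators Arntl (also called Bmal1), Clock and Npas2, the repressors Per1, Per2, Per3, Cry1 and Cry2, and the nuclear receptor genes Nr1d1 and Nr1d2. They were found by the RefSeq accession that each array probe carries, and all 10 were present, each with 1 probe printed once per array, out of 20284 named genes. Liver RNA came from C57B6J wild-type (WT) mice and from CREBH null (KO) mice on the same background, fed ad lib or fasted for 24 h. CREBH is a liver transcription factor of the endoplasmic reticulum membrane, encoded by Creb3l3. Each of the 4 groups was a single pool of liver RNA, with WT in the Cy3 and KO in the Cy5 channel of 1 array per feeding state. Neither replicates nor a dye swap were made, so no difference has a test, and every value describes these 4 pools. The number of mice per pool and the time of day at which livers were taken were not given in these sources.

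The clock is a feedback loop of transcription that runs in nearly every cell. The products of Arntl and Clock, or its relative Npas2, pair on DNA elements called E-boxes and switch on the Per and Cry genes, whose proteins return to the nucleus and shut the pair down. The same pair switches on Nr1d1 and Nr1d2, which encode REV-ERB alpha and beta, repressors that bind RORE elements and hold down Arntl, so that Arntl and the Per and Nr1d genes peak at opposite times. In liver the phase of this loop follows the hours of feeding, and Per1 in particular answers to hormones of fasting through glucocorticoid and cAMP response elements.

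The promoters of the 3 members with the widest range over the 4 pools are shown first, as the 250 bases before the annotated start (RefSeq, GRCm38.p6, 5′ to 3′ in the direction of the gene). Capitals mark letters searched on both strands: the E-box CACGTG, the related CACGTT, the D-box TTATGTAA or TTACGTAA, the full RORE and its core TNAGGTCA or TNGGGTCA, and the cAMP response element TGACGTCA and its half-site TGACG.
Per1, first start, chr11:69098699-69098948, plus strand: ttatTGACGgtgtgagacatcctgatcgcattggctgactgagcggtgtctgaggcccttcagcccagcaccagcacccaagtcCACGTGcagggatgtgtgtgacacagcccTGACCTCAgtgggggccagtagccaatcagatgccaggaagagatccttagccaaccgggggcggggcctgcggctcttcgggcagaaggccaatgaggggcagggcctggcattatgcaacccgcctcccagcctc
Per1, second start, chr11:69099902-69100151, plus strand: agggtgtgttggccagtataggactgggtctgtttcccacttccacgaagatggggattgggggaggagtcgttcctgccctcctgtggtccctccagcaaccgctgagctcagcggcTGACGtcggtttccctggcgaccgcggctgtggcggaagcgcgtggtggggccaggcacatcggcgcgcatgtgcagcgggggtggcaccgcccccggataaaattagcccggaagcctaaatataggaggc
Nr1d1, chr11:98775378-98775627, minus strand: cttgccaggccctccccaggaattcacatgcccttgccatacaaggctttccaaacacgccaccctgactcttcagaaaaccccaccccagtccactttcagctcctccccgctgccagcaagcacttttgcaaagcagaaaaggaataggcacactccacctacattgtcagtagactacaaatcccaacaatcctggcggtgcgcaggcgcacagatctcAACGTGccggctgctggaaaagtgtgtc
Arntl, chr7:113207215-113207464, plus strand: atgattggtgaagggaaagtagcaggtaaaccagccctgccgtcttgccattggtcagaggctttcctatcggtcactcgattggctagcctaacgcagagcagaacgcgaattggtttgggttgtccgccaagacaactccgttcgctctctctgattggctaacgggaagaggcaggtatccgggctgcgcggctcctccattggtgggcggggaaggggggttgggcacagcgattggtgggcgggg

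The window before the first Per1 start held a CACGTG, which begins 166 bases before the start, a match to the RORE core at 137 bases and a TGACG at 246 bases. The window before the second start held a TGACG at 132 bases. Nr1d1 had AACGTG, the reverse of CACGTT, 28 bases before its start, and the Arntl window shown, like a second one that overlaps it, had none of these letters. Per2 is not in the promoter table and was not searched. Over the 13 windows of the other 9 members, CACGTG stood in 2 (Per1 and Cry1), CACGTT in 3 (Cry1, Cry2 and Nr1d1), the D-box in 1 (Per3, at 2 places), the RORE core in 2 (Clock and Per1) and TGACG in 4 (both Per1 windows, Cry1 and Cry2). Among all 32851 promoter windows of the same length, CACGTG stood in 6.02%, CACGTT in 3.85%, the D-box in 0.931%, the RORE core in 6.39% and TGACG in 17.8%. The full cAMP response element (1.55% of all windows) and the full RORE (0.049%) were in no member's window. A match gives letters only and no evidence of binding, and elements outside these windows were not searched.

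A probe counted as measured where the scanner software called it well above background. Clock, Arntl, Per1, Per2, Cry2, Nr1d1 and Nr1d2 were measured in all 4 pools, Per3 in all but the fed WT pool, and Npas2 and Cry1 in none. The spot of Npas2 read 30.5 over a local background of 25 in fed WT liver and 22.5 over 25 in fasted WT liver, and that of Cry1 read 26 over 24 and 28 over 27. In the KO channel Npas2 read 71.5 over 69 and 79 over 73, and Cry1 read 75 over 66.5 and 72.5 over 68. No ratio is given for these 2 genes, and their open circles in the plot of levels by pool have no order. Spread between spots came from probes printed 10 times: near the brightness of each member, in the comparisons where it was measured, the median SD of a log2 ratio was between 0.063 and 0.13. This technical SD leaves out how mice, pools and labelling reactions vary.

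**Figure D1:**
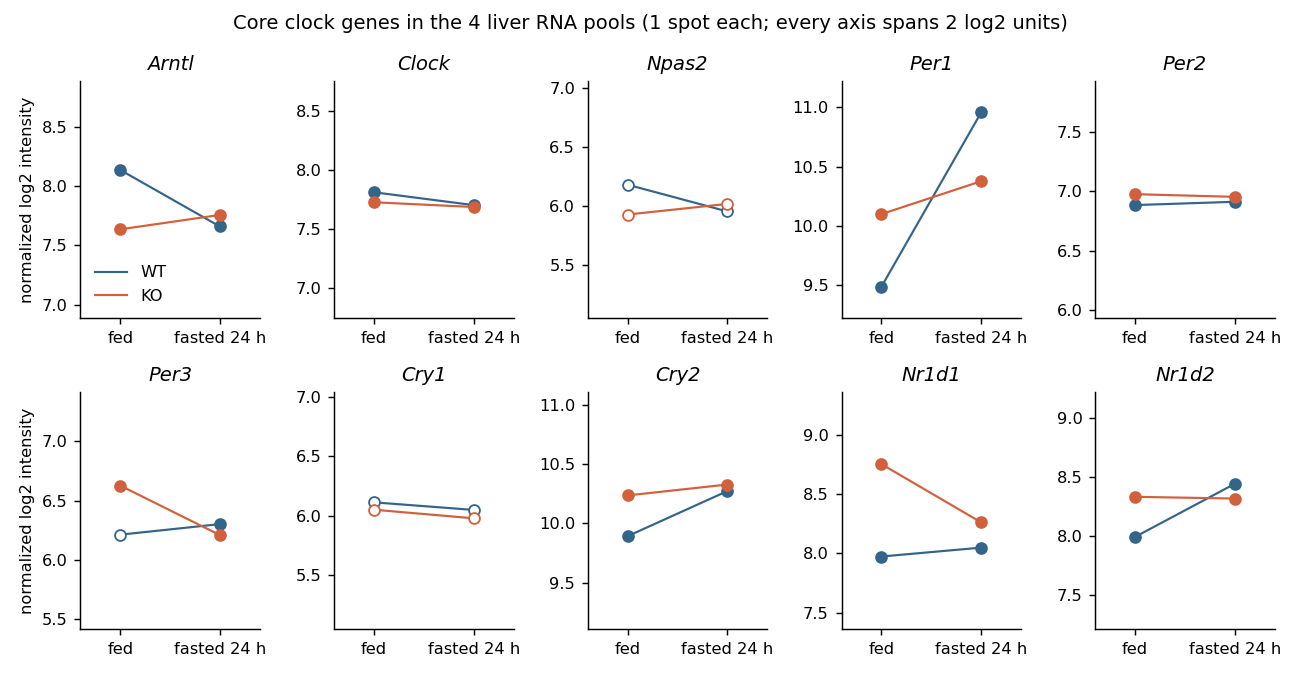
Normalized log2 intensity of the 10 core clock genes (y axis, every panel spanning 2 log2 units) in fed and 24 h fasted liver (x axis) of WT (blue) and KO (orange), 1 spot per pool. Filled circles are spots well above background and open circles are not; Per1 went from 9.49 to 10.96 in WT and from 10.10 to 10.38 in KO.

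Creb3l3, the gene knocked out, was lower in KO by a log2 ratio of -0.88 in fed and -2.07 in fasted liver, on a single probe whose place relative to the deletion is unknown. All 7 measured genes of the feeding list, among them Fasn and Thrsp, were at least 2-fold lower after fasting in both genotypes, and of the fasting list 6 of 7 were at least 2-fold higher in WT, among them Pck1 and Fgf21, and 3 of 7 in KO (Pdk4, Cpt1a and Angptl4). G6pc of that list went the other way, at -0.12 in WT and -1.04 in KO. Of all genes, 2.05% in WT and 2.14% in KO were 2-fold lower after fasting, and 2.28% and 2.42% were higher. Hepatocyte markers were measured for 7 of 7 named genes, with a median log2 KO over WT ratio of -0.24 fed and -0.02 fasted. Markers of Kupffer cells, the macrophages of the liver, had summed normalized intensities of 16041 in fed WT, 11720 in fed KO, 15008 in fasted WT and 15788 in fasted KO liver. By the brightest probe all 7 genes were lower in fed KO (median log2 ratio -0.32) and 5 of 7 higher in fasted KO (0.15). Of all genes, 53.1% lay above 0 in the fed and 52.8% in the fasted comparison. Another probe of Csf1r was at 0.045 in fed liver, and a second probe of Adgre1 at -0.077 in fasted liver. Fewer cells of a type and less RNA per cell cannot be told apart here. Summed endothelial markers ranged from 9349 (fed KO) to 12098 (fasted KO), and stellate markers from 8086 (fed WT) to 9355 (fasted KO). All 8 endothelial markers also lay below 0 in fed KO over WT (median -0.10), whereas 6 of 7 stellate markers lay above (0.16). The endothelial markers Kdr (-0.0047), Stab2 (-0.016), Clec4g (-0.030) and Pecam1 (-0.069) were within the median technical SD of 0.086 of 0. So were the stellate markers Lrat (-0.053), Reln (0.035) and Rgs5 (0.062), and the direction of all these is open. Of these lists, Marco was 2-fold lower after fasting in WT, Lyve1 higher and Col1a1 and Col3a1 lower in both genotypes, and Cps1 higher in KO. Of the other lists, Krt7, Epcam and Cldn4 of cholangiocytes, Cd79a, Ms4a1 and Cd8a of lymphocytes and Mpo of neutrophils were not well above background in any pool. The part of other cell types in the clock values was not tested.

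In fed liver the 5 measured repressor genes of the clock lay above 0 in KO over WT, and both measured activators below. Of these, Per2 (0.092, technical SD 0.11) and Clock (-0.084, 0.10) were within 1 technical SD of 0, so their direction is open. The 7 directions held under the alternatives with exceptions in 2 of them. Centring on all gene spots put all 7 above 0 (Arntl at 0.13), and centring on measured genes put Per2 at -0.27. Rules for several probes or spots, and for dim probes, could not move a measured member, each having 1 probe and 1 spot. Nr1d1 was 1.72-fold and Per1 1.53-fold higher in KO, whereas Arntl was 1.42-fold lower. KO was in Cy5 on both arrays. Genotype and a dye effect of a probe therefore cannot be told apart in a single KO over WT ratio, fed or fasted. None of the 7 members measured was 2-fold apart, beside 0.554% of the 11377 genes measured. By a rule of 1.5-fold, 2 of 7 were higher and none lower, against 1.33% of all genes higher and 1.41% lower. The median log2 ratio of the 7 was 0.34, beside 0.013 for all genes, and 5 of 7 were above 0, as were 53.1% of all genes.

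Nr1d1 encodes REV-ERB alpha, the main repressor of Arntl. Its normalized log2 intensity was 7.97 in fed WT, 8.75 in fed KO, 8.05 in fasted WT and 8.26 in fasted KO liver. Fed KO liver was the high pool, and the WT pools were close together. The KO over WT ratio was 0.78 in fed liver (technical SD 0.092), the 42nd highest of 11377 genes, and 0.21 in fasted liver (0.083). The scanner-processed fed ratio of Nr1d1 was 0.97, with a scanner error of 0.22. Nr1d2, the gene of REV-ERB beta, was at 7.99 in fed WT, 8.33 in fed KO, 8.44 in fasted WT and 8.32 in fasted KO. Here fed WT was the low pool and the other 3 lay within 0.12 of each other. Its KO over WT ratio was 0.34 in fed liver (0.099) and -0.12 in fasted liver (0.082). Scanner-processed signals gave 0.63 for the fed ratio of Nr1d2.

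Arntl had log2 intensities of 8.14 in fed WT, 7.63 in fed KO, 7.66 in fasted WT and 7.76 in fasted KO liver. Fed WT stood above the other 3 pools, which were within 0.12 of each other. The KO over WT ratio was -0.50 in fed liver (technical SD 0.10), the 210th lowest of 11377 genes, and 0.097 in fasted liver (0.092). Clock, its constantly expressed partner, was at 7.81, 7.73, 7.70 and 7.69 in fed WT, fed KO, fasted WT and fasted KO liver. These 4 values of Clock spanned 0.12, and its KO over WT ratios of -0.084 fed and -0.016 fasted were within 1 technical SD (0.10 and 0.092) of 0.

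**Figure D2:**
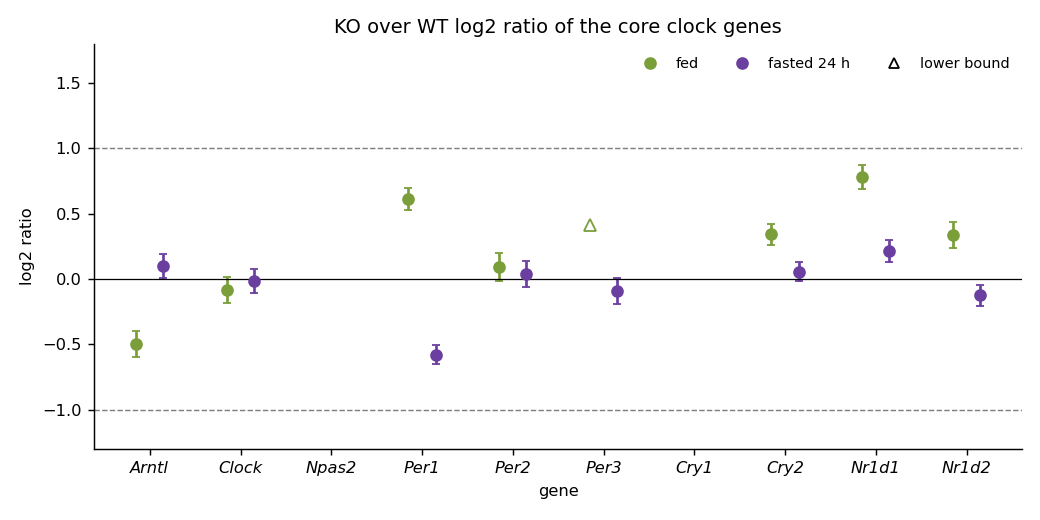
Log2 KO over WT ratio (y axis) of the core clock genes (x axis) in fed (green) and fasted (purple) liver; bars are the technical SD between spots, dashed lines mark 2-fold and the open triangle is a lower bound. Per1 lay at 0.61 fed and -0.58 fasted, and Nr1d1 at 0.78 and 0.21.

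Per1 was higher in KO than in WT in fed liver and lower in fasted liver. The gene encodes a PERIOD protein, part of the complex that represses the activators. Per1 had log2 intensities of 9.49 in fed WT, 10.10 in fed KO, 10.96 in fasted WT and 10.38 in fasted KO liver. Both KO pools lay between the WT pools. The KO over WT ratio was 0.61 in fed liver (technical SD 0.081), the 126th highest of 11377 genes. It was -0.58 in fasted liver (0.072), the 189th lowest of 12263 genes. When loess was replaced by centring on the median of every gene spot, the Per1 ratio was 1.54 fed and 0.17 fasted. That centring also moved the median of all measured genes, to 0.78 fed and 0.57 fasted. Relative to the median of all genes, Per1 lay between 0.60 and 0.77 in fed and between -0.61 and -0.40 in fasted liver over all 8 alternatives.

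Of the other PER and CRY genes, Cry2 and Per2 had ratios closer to 0 than Per1, and Per3 had only a bound in fed liver. Cry2, which encodes a cryptochrome repressor, was at 9.89 in fed WT, 10.24 in fed KO, 10.27 in fasted WT and 10.33 in fasted KO liver. Fed WT was again the low pool, and the other 3 lay close together. Its KO over WT ratio was 0.34 fed (technical SD 0.079) and 0.055 fasted (0.073). Scanner-processed signals gave 0.21 for the fed ratio of Cry2. Per2, the second PERIOD gene, was at 6.88, 6.98, 6.91 and 6.95 in fed WT, fed KO, fasted WT and fasted KO liver, a span of 0.092 that is within its technical SD of 0.11 for a fed ratio. The Per2 spots were dim (51 over a background of 27 in fed WT liver), and the offset added to every signal draws such ratios towards 0. Per3 was not well above background in fed WT liver and was measured at 6.63 in fed KO, 6.30 in fasted WT and 6.21 in fasted KO liver. Fed KO was thus the high pool of Per3, at least 1.33-fold above fed WT as a bound, which is open to dye bias. The fasted KO over WT ratio of Per3 was -0.092, within its technical SD of 0.099, and it ranged from -0.56 to 0.12 over the alternatives.

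In fasted liver no clear genotype pattern ran through the members. None of the 8 measured was 2-fold apart, where 0.791% of 12263 genes were, and none was 1.5-fold apart, where 2.73% were. Per1 was just short of 1.5-fold, at 1.49-fold. An offset of 10 in place of 50 put it at -0.61, past the log2 of 0.585 that stands for 1.5-fold. Their median was 0.013, equal to that of all genes, with 4 above and 4 below 0. Per1 (-0.58) and Nr1d1 (0.21) were the furthest from 0.

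Fasting set Per1 apart from the other members in WT liver. Fasted WT liver had 2.77-fold more Per1 signal than fed WT liver (log2 1.47, technical SD 0.063), the 96th highest of 11442 genes, while fasted KO liver had 1.21-fold more than fed KO liver (0.28, 0.063). Per1 was the 1 member of 7 measured in WT that was at least 2-fold higher, where 4.33% of all genes were 2-fold apart, 2.28% higher and 2.05% lower. Over 9 other ways of processing, the WT value stayed between 1.43 and 2.07 and the KO value between 0.19 and 0.87, the upper ends being those without normalization between arrays, which moved the median of all genes to 0.46 and 0.45. In KO liver none of 8 members was 2-fold apart, where 4.56% of 11786 genes were.

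Arntl was lower in fasted than in fed WT liver by a log2 ratio of -0.48 (technical SD 0.085), and its KO pools differed by 0.12 (0.088). Nr1d2 and Cry2 were higher in fasted WT liver by 0.45 (0.082) and 0.38 (0.065), with KO values of -0.015 (0.083) and 0.092 (0.063). For Nr1d1 the difference lay in KO instead: -0.49 (0.083), against 0.075 (0.084) in WT. Without normalization between arrays the KO value of Nr1d1 was 0.010 and the WT value of Arntl -0.038, where the median of all genes had moved to 0.45 and 0.46. Per3 in KO liver was at -0.42 (0.12), between -0.75 and -0.30 over the alternatives. In WT its bound was 1.06-fold higher when fasted (log2 0.089), within 1 technical SD (0.10) of 0, so its direction there is open. The median of the members was 0.075 in WT, beside -0.0036 for all genes, and -0.019 in KO, beside 0.0011. Fasted and fed pools lay on different arrays, so these values also carry any difference between arrays left after normalization.

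**Figure D3:**
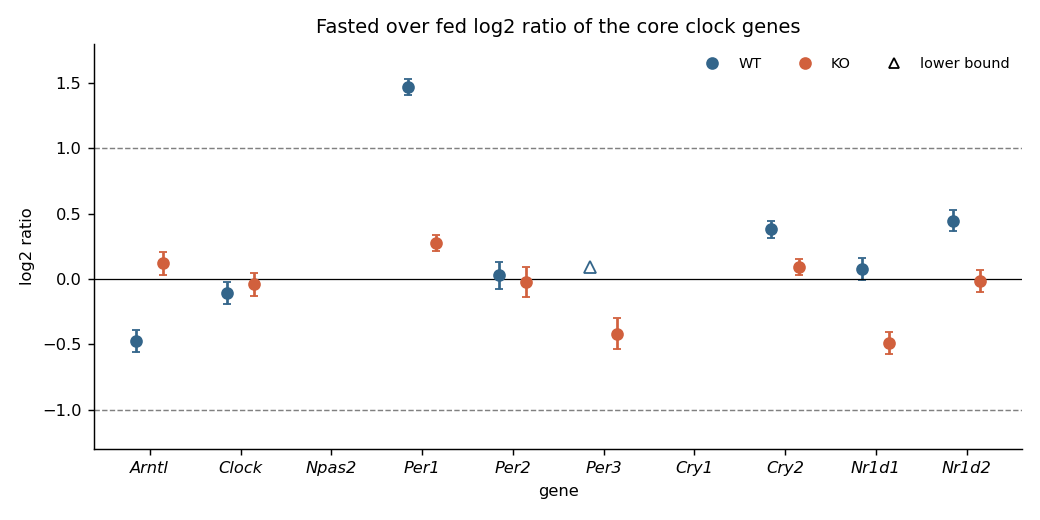
Log2 fasted over fed ratio (y axis) of the core clock genes (x axis) in WT (blue) and KO (orange) liver; bars are the technical SD between spots, dashed lines mark 2-fold and the open triangle is a lower bound. Per1 in WT (1.47) was the 1 value past 2-fold, and Nr1d1 was lower in KO (-0.49) and near 0 in WT (0.075).

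The KO over WT ratio in fasted minus that in fed liver cancels a dye effect of a probe, because the dyes were laid out alike on both arrays. It was -1.19 for Per1 (technical SD 0.075), a 2.28-fold difference and the 49th lowest of 11291 genes. Per1 was the 1 of 7 members at least 2-fold lower by this measure, where 0.602% of all genes were, and no member was 2-fold higher, where 0.771% were, 1.37% in all. By a rule of 1.5-fold 2 members were apart, Per1 and Arntl, beside 4.23% of all genes. Arntl was at the other end with 0.60 (0.10), the 242nd highest. Nr1d1 was at -0.57 (0.10), Nr1d2 at -0.46 (0.10) and Cry2 at -0.29 (0.076). Clock (0.069, 0.11) and Per2 (-0.050, 0.13) were within 1 technical SD of 0. Both measured activators were above 0 and all 5 measured repressor genes below, though Clock turned to -0.050 with centring on all gene spots and Per2 to between 0.050 and 0.13 under 3 alternatives. Of all genes 48.8% were above 0. The median over the 7 was -0.29, beside -0.0051 for all genes. Over the 8 other ways of processing, Per1 ranged from -1.37 to -1.16, Arntl from 0.45 to 0.75, Nr1d1 from -0.74 to -0.53, Nr1d2 from -0.72 to -0.36 and Cry2 from -0.51 to -0.15. All 5 kept their sign under each of these. The rules for probes, spots and dim probes returned the reported value by construction, however. The ratios deposited by the authors repeat the scanner-processed ones.

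**Figure D4:**
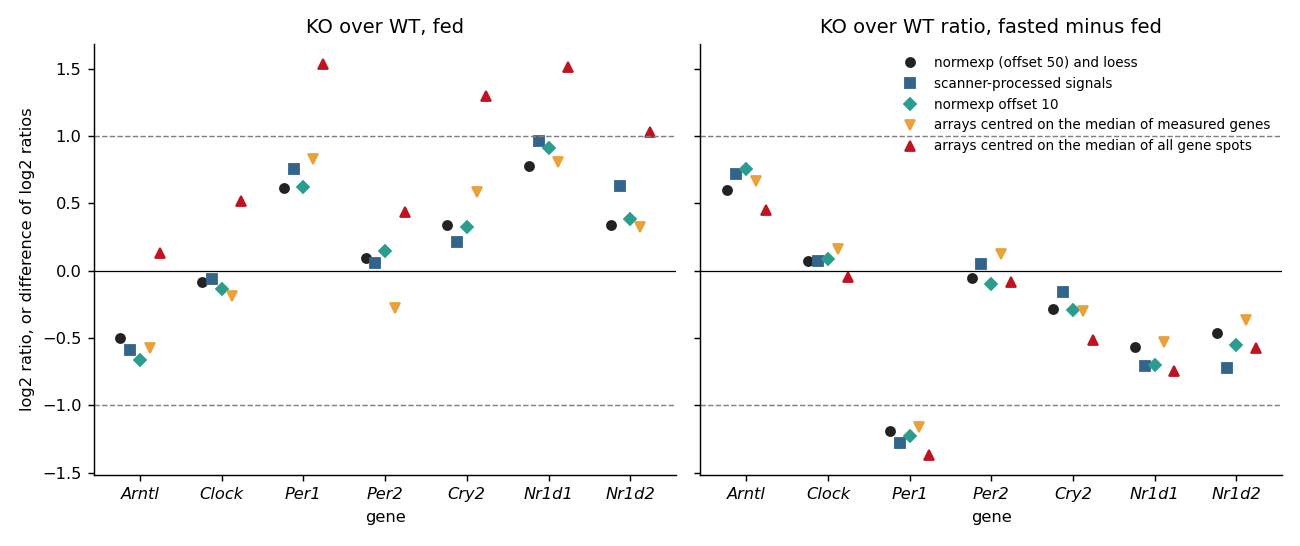
Log2 KO over WT ratio in fed liver (left) and the difference of the ratios, fasted minus fed (right), of the 7 core clock genes measured in all 4 pools, under 5 ways of processing (symbols); dashed lines mark 2-fold. On the left, centring on the median of all gene spots (red) lifts every gene, Nr1d1 from 0.78 to 1.51; on the right Per1 lies between -1.37 and -1.16 under all 5.

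Around the core loop, 39 further clock genes were listed, of which 34 or 35 were measured in each comparison. The list was chosen with earlier results of these data known. Its counts, here and below, are therefore not independent of the data, and the shares of all genes beside them are a description only. Of 34 in WT liver, 5 were at least 2-fold higher after fasting and 1 was lower, beside 2.28% and 2.05% of all genes. In KO liver none was higher and 1 lower, beside 2.42% and 2.14% of all genes. The one gene lower in both was Bhlhe40 (-1.64 in WT and -1.59 in KO), which encodes DEC1, another E-box repressor. The 5 higher in WT were Lpin1, Por, Usp2 and Cdkn1a, all from the 10 listed rhythmic liver outputs, and Tef. Lpin1, a phosphatidate phosphatase gene, was at 2.05 in WT and 0.025 in KO (a second probe measured in KO gave -0.30), and Usp2, a deubiquitinase gene, at 1.29 and -0.073. Por, the P450 reductase gene, was at 1.61 and 0.75, and the cell cycle inhibitor gene Cdkn1a at 1.19 and 0.81. Tef, a D-box activator gene, was at 1.07 and 0.25. Dbp, which encodes the D-box activator most directly driven by the Arntl and Clock products, had 2 measured probes that lay at 0.97 and 1.06 in WT and at -0.42 and -0.31 in KO. These 5 genes and Bhlhe40 stayed on their side of 2-fold in WT under all 9 alternatives. The count of 0 higher in KO became 3 with scanner-processed signals (Wee1, Tfrc and Cdkn1a). It became 2 with an offset of 10 in place of 50 (Tfrc and Cdkn1a) and 1 with centring on measured genes (Tfrc). Tfrc was at 0.95 in KO by its brightest probe and at -0.29 by a second one. Without normalization between arrays 12 were higher in WT and 6 in KO.

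In the fed genotype comparison 1 of 34 wider clock genes was 2-fold higher, Lpin1 at 1.59, and none lower, beside 0.158% and 0.396% of all genes. In the fasted one none of 35 was higher and 1 lower, beside 0.359% and 0.432% of all genes. The gene was Noct, at -1.35, which encodes a rhythmic phosphatase once known as a deadenylase. The difference of the ratios was 2-fold lower for 4 of 34, namely Lpin1 (-2.02), Dbp (-1.39), Usp2 (-1.36) and Noct (-1.27), and 2-fold higher for none, beside 0.602% and 0.771% of all genes. Its median was -0.14 over the 34, and these 4 stayed 2-fold lower under all 8 alternatives, joined by Tef, Por and Gys2 with centring on all gene spots. That centring also made 15 of 34 2-fold higher in fed KO, took Noct out of its call in fasted liver and put Csnk1d and Tfrc 2-fold higher there. The wider transcription factors as a group had a median of 0.35 in the fed, -0.26 in the fasted and -0.40 in the difference of ratios, and the rhythmic outputs 0.058, -0.41 and -0.62. The 17 measured kinases, ubiquitin ligases and partners of the clock proteins held no gene 2-fold apart in any of the 5 comparisons. In the difference of the ratios their lowest and highest values by the brightest probe were -0.27 (Csnk1e) and 0.21 (Prkaa1), and a second probe of the casein kinase gene Csnk1d gave -0.55. Furthest from 0 were Csnk1d in fed liver, at 0.44 with 0.13 on its second probe, and the AMP-activated kinase gene Prkaa2 furthest after fasting, at -0.54 in WT and -0.61 in KO.

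**Figure D5:**
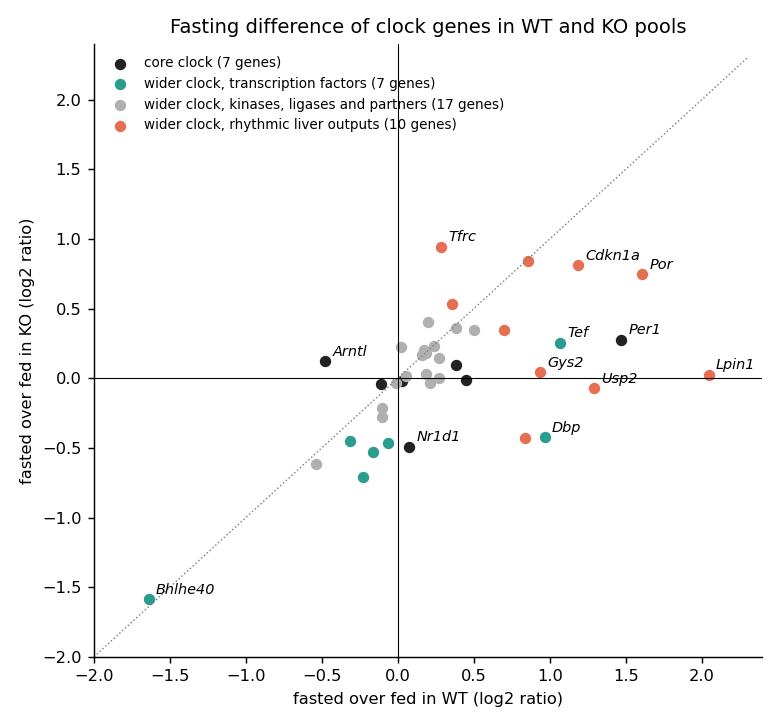
Log2 fasted over fed ratio in WT (x axis) against KO (y axis) for clock genes measured in all 4 pools: 7 core genes (black) and 34 wider clock genes in 3 groups (colours); the dotted line marks equal values. Per1 (1.47, 0.28), Dbp, Usp2 and Lpin1 lie to the right of the line, and Bhlhe40 (-1.64, -1.59) lies near it.

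The list of inputs to Per1 and Per2 also held target genes of the glucocorticoid receptor. Of these Fkbp5, a widely used one, was higher after fasting in both genotypes (1.53 in WT and 1.16 in KO). Of the 8 listed genes measured, Fkbp5 was the 1 that was 2-fold apart in either fasting comparison, beside 4.33% of all genes in WT and 4.56% in KO. The list was chosen with earlier results of these data known, and a few of the genes named here after their values were seen. Its counts are therefore not independent of the data. Tsc22d3, another glucocorticoid target gene, was at 0.072 in WT and -0.20 in KO. The glucocorticoid receptor gene Nr3c1 was at -0.23 and -0.28, and a second, dimmer probe at -0.78 and -0.86. Crem, of the cAMP response, was at 0.042 and -0.38, and Sik1, a kinase gene induced by cAMP, at -0.16 and -0.68. Between genotypes none was 2-fold apart, beside 0.554% of all genes in fed and 0.791% in fasted liver. Fkbp5 (0.29) and Atf4 (-0.29) were about as far from 0 in fed liver, and a second probe of Crem was at 0.48. By the brightest probe, Sik1 was furthest from 0 in fasted liver (-0.50) and Atf4, a stress response factor gene, in the difference of ratios (0.59). Whether any of these bears on Per1 was not tested.

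Profiles over the 4 pools were compared by the Euclidean distance of log2 levels, each centred on its own mean, among 11291 genes measured in all pools. Nearest to Per1 were Slc25a47 (distance 0.18), Slc25a33 (0.24), Brap (0.27), Tef (0.29) and Pim3 (0.30), where the median distance of all genes was 1.08. Tef was the 1 clock gene among these 5. Nearest to Nr1d1 were the major urinary protein genes Mup4 (0.049) and Mup18 (0.081), whose near-identical family a probe may not tell apart, then Pla2g6 (0.11), Sec22b (0.14) and Arl6ip1 (0.19), beside a median of 0.67. Nearest to Arntl were Manba (0.038), Dnmt3b (0.055), Fxyd5 (0.065), LOC547349 (0.096) and Jade2 (0.098), beside a median of 0.50. With 4 points per profile these distances are a description of the pools only.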

How the data were processed

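The authors deposited spot files of Agilent Feature Extraction 10.10.1.1, with a grid of build mm9, per the file headers. Raw spot and local background intensity are as scanned in the deposited files. A second, processed intensity was made by the scanner software through background subtraction, detrending and dye normalization, per the file headers. The log10 ratio in the deposited files is Cy5 over Cy3, and its deposited p-value, from an error model of 1 spot, was not used. The log2 ratios of a separate table, deposited by the authors with scale and direction unstated, differed from the log10 ratios turned to log2 by at most 0.005. Both of its columns have a median of 0.00. A further centring of these ratios by more than 0.005 would have shown as a larger difference. The labels give WT in Cy3 and KO in Cy5.

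Median signals were corrected with normexp (offset 50), normalized by loess within arrays and by Aquantile between them, in limma 3.58.1 under R 4.3.3, and this was tested on simulated data. The offset draws the ratios of dim genes towards 0. Of the spots, 3671 controls and the outliers (216 on the fed and 197 on the fasted array) were dropped. Gene spots called saturated numbered 0. RefSeq accessions named 26762 of 55681 probes through the GRCm38.p6 gene table, used for names only. The brightest probe stood for a gene. A gene was measured when at least 50% of its spots were well above background in each channel compared. A bound divides the bright signal by whichever is larger, the dim probe's signal or the lowest one well above background in its channel. The technical SD is the median over the 50 probes, printed 10 times, nearest in brightness. With 1 pool per group there was no test, and values were sorted by a difference of 2-fold. Precision is limited by having 2 arrays. Members and lists were chosen with earlier results of these data known. All 10 members are named. Of the other lists, genes at least 2-fold apart or furthest from 0 are named, with values only where a member's result is set beside them, and a few inputs of Per1 were chosen after their values were seen.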

Additional observations from a re-analysis of the deposited data

Results flagged for a closer look

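3 members had KO over WT ratios on opposite sides of 0 in fed and fasted liver, each beyond its technical SD. The fasted minus fed difference was 0.60 for Arntl (-0.50 fed and 0.097 fasted), -1.19 for Per1 (0.61 and -0.58) and -0.46 for Nr1d2 (0.34 and -0.12). By the scanner-processed ratios, the fasted values of Arntl (0.13, scanner error 0.21) and Nr1d2 (-0.088, 0.20) were within their scanner error of 0. Centring on all gene spots, which moved the median of all genes, put Arntl at 0.13 fed, Per1 at 0.17 fasted and Nr1d2 at 0.46 fasted. The opposite signs of these 3 members were then gone. With 1 pool per group the differences were not tested.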

How the results depend on the processing

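No paired analysis was possible because each group was 1 pool with no replicate. All differences rest on 1 spot per gene and pool, so noise between mice, labellings and arrays is unknown, and dim members (Per2, Per3) are limited by signal over background. With centring on the median of all gene spots, which moved the median of all genes by 0.78 (fed) and 0.57 (fasted), 4 members (Per1, Cry2, Nr1d1 and Nr1d2) were 2-fold higher in fed KO liver in place of 0, Arntl turned to 0.13 fed, and the members' medians became 1.03 (KO over WT, fed), 0.46 (fasted), 0.16 (fasting, WT) and -0.51 (difference of ratios). The all-gene split at 2-fold then was 3101 higher against 9 lower in the fed comparison, where it had been 18 against 45, and 940 against 16 in the fasted one, where it had been 44 against 53. Centring on measured genes gave 112 against 41 and 107 against 39, scanner-processed signals 62 against 112 and 88 against 105. Scanner-processed signals gave medians of 0.21 (fed), 0.24 (fasting, WT) and -0.16 (difference), the deposited log2 ratios 0.21 (fed) and -0.15 (difference), and no filter on dim probes 0.21 and -0.17 (fed, difference). Without normalization between arrays the fasting medians were 0.58 in WT and 0.44 in KO, where the median of all genes moved to 0.46 and 0.45. Where no shift of all genes is given, the cause was not tested. At 1.5-fold, 2 members counted in the fed comparison and 2 in the difference. The other medians and member counts stayed within the spread between spots or within 1.5 times. Of 311 values of single members under the alternatives, 284 kept their sign, 307 their side of 2-fold, and 0 that were 2-fold apart reversed. Each member has 1 probe and 1 spot, so the rules for several probes or spots could not change its value. Dropping the filter on dim probes could not change a measured member either. The deposited log2 ratios repeat the scanner-processed ones up to rounding. All of these are counted in the 311, so fewer than 311 values could differ on their own.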
